A study of Mus musculus with 8 samples.

Results

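The TNF superfamily ligands described here are 8 genes, Tnfsf8, Tnfsf9, Tnfsf10, Tnfsf12, Tnfsf13, Tnfsf13b, Tnfsf14 and Tnfsf15, taken by gene symbol from the 21051 protein-coding genes of the deposited tables. They were measured by RNA-Seq in tumor-associated macrophages (TAMs), sorted by FACS as CD45+F4/80+ cells from B16 melanomas, a pigmented mouse tumor line of C57BL/6 origin, on day 14 after s.c. injection. TAM-WT are the cells of 4 WT mice, and TAM-KO are the cells of 4 Colec11-/- mice, which lack collectin-11 (CL-11), a soluble C-type lectin of innate immunity. Both groups were C57BL/6 males aged 8 to 10 weeks, the WT mice being littermates, and each mouse gave 1 library. The deletion is in the whole animal, so it is not particular to the macrophages, and the p-values measure the spread between these 8 mice.

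TNF superfamily ligands are type II membrane proteins that assemble into trimers and bind receptors of the TNF receptor superfamily. Some act at the cell surface and others are cut free by furin-like or ADAM proteases, and their receptors signal through TRAF adaptors to NF-kB or, where they carry a death domain, to caspases. In tumors, macrophages are a known source of several of them: TRAIL can kill tumor cells, BAFF and APRIL sustain B cells and plasma cells, 4-1BB ligand, CD30 ligand, LIGHT and TL1A costimulate lymphocytes, and TWEAK acts on stromal and tumor cells.

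Levels are given as FPKM, the fragments on a gene scaled to its length and to the mapped fragments of the library, which allows genes to be compared with each other. Differences between the groups come from edgeR's quasi-likelihood test on the expected counts of RSEM, with p adjusted by Benjamini-Hochberg over 12412 genes. A gene passed at an adjusted p of at most 0.05, and a DEG also had a fold change of at least 2. All 8 ligands had a value in all 8 libraries and all 8 were tested. Of all genes tested, 568 were higher and 650 were lower in TAM-KO, so that 46.6% of the calls were higher, against 64.4% when the libraries were scaled to total counts.

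The expected counts of 7 libraries totalled between 16225362 and 17280267, and the table of TAM-KO replicate 1 lacked a block of 5311 genes, which held none of the 8 ligands. Colec11 had from 0 to 4 expected counts in TAM-WT and 1 in every TAM-KO library, which is too few in both groups to check the genotype. Adgre1, which encodes F4/80, had from 186 to 239 FPKM in TAM-WT and from 182 to 199.96 FPKM in the 3 TAM-KO libraries with a value, and Ptprc, which encodes CD45, had from 39.1 to 88.7 FPKM over all 8, as the sort requires. The 9 macrophage markers summed to between 5596 and 6967 FPKM in TAM-WT and between 6098 and 6700 FPKM in those 3 TAM-KO libraries, led by C1qa and C1qb, and 0 of the 9 passed with edgeR (3 at an unadjusted p under 0.05, and 3 passed with DESeq2). The 7 melanoma cell markers, led by Pmel and Dct, summed to between 1958 and 4382 FPKM in TAM-WT and between 3817 and 5057 FPKM in TAM-KO, and all 7 had a log2 fold change above 0, of which 1 passed with edgeR (6 at an unadjusted p under 0.05, and 5 passed with DESeq2). TAM-WT replicate 1 stood apart: 8 of the 9 T cell markers summed to 14.6 FPKM in it, against 2.65, 3.62 and 3.19 FPKM in the other TAM-WT libraries. In TAM-KO these 8 summed to between 15.1 and 41.9 FPKM. All 9 summed to 17.4 FPKM in TAM-WT replicate 1, within the range of 17.1 to 43.7 FPKM in the 3 TAM-KO libraries other than replicate 1.

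Of the 8 ligands, Tnfsf10 rose in TAM-KO and the other 7 did not pass the test. One of 8 passing stands beside 9.81% of all genes tested that passed in either direction, 4.58% that passed as higher and 5.24% that passed as lower, so the ligands passed at about the rate of all genes. Their log2 fold changes (TAM-KO over TAM-WT) ran from -0.94 to 1.59, with 4 above 0 and 4 below, and their median was -0.06 against 0.00 over all genes tested. Unadjusted, 4 of 8 had a p under 0.05, where 30.7% of all genes did. In bulk RNA, fewer cells of a type and less RNA per cell cannot be told apart, and this holds for every difference given here.

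Both groups put the ligands in the same order by mean FPKM, from Tnfsf12 and Tnfsf9 through Tnfsf13, Tnfsf14, Tnfsf13b, Tnfsf10 and Tnfsf8 down to Tnfsf15. In TAM-WT the order had 2 gaps, below Tnfsf9 and below Tnfsf14, while the other neighbours overlapped in their ranges over the 4 mice. In TAM-KO, Tnfsf12 lay apart from Tnfsf9, Tnfsf9 from Tnfsf13, Tnfsf14 from Tnfsf13b and Tnfsf10 from Tnfsf8, and the other 3 pairs of neighbours overlapped. The 8 ligands together summed to 81.6, 107, 136 and 117 FPKM in TAM-WT replicates 1 to 4 and to 86.1, 83.9, 73.3 and 88.4 FPKM in TAM-KO replicates 1 to 4. Tnfsf12 and Tnfsf9 made up 86.7% ± 2.75 of that sum in TAM-WT and 78.5% ± 3.60 in TAM-KO (SD, n = 4). Their share ran from 82.8% to 89.3% in TAM-WT and from 74.1% to 82.0% in TAM-KO, and the other 6 ligands made up the rest. The sum and the shares carry no test, since the members were chosen with the data known.

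**Figure D1:**
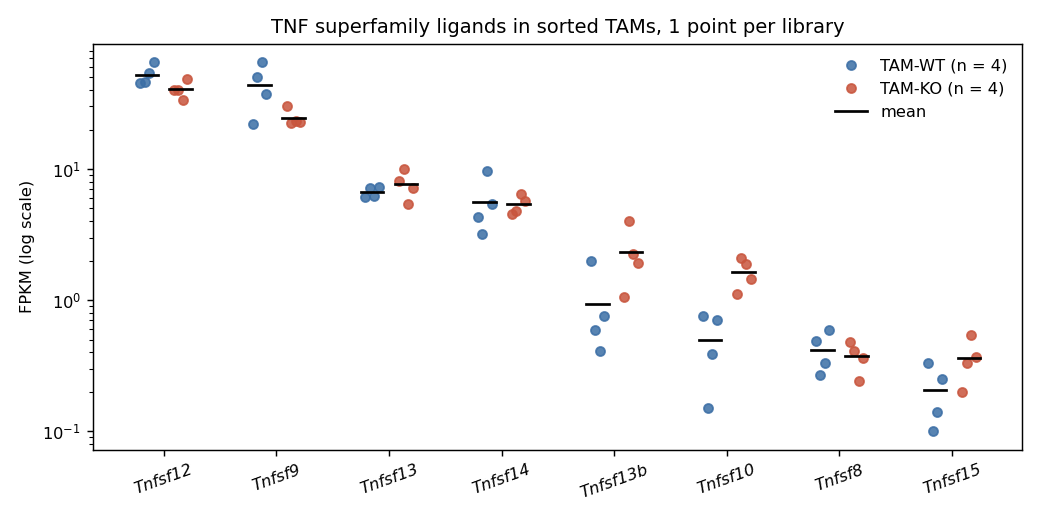
FPKM of the 8 ligands on a log axis, with 1 point per library (TAM-WT left, TAM-KO right, 4 each) and a bar at the mean of each group. Tnfsf10 has every TAM-KO point (1.12 to 2.09 FPKM) above every TAM-WT point (0.15 to 0.76 FPKM), and the groups overlap for the other 7.

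**Figure D2:**
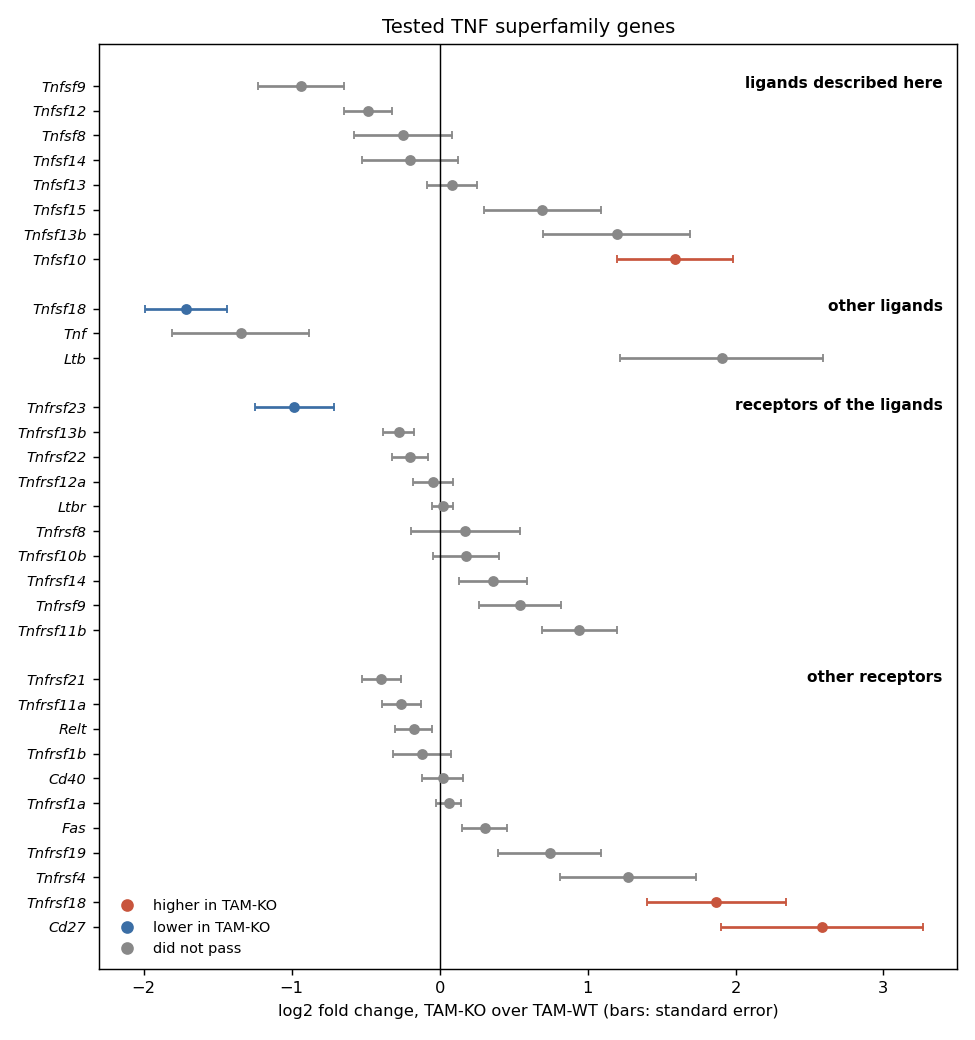
Log2 fold changes (TAM-KO over TAM-WT, bars are the standard error) of the tested TNF superfamily ligands and receptors, coloured where the adjusted p was at most 0.05. Tnfsf10 (1.59), Tnfrsf18 (1.87) and Cd27 (2.58) lie to the right in colour, and Tnfsf18 (-1.71) and Tnfrsf23 (-0.98) to the left.

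The promoters of the pair of ligands with the largest log2 fold changes above 0, Tnfsf10 and Tnfsf13b, are shown, though Tnfsf13b did not pass the test. An interferon response list is given beside the values of Tnfsf10 below, and its part in either gene was not tested. RefSeq promoter sequences of 300 bases (250 before the start site to 50 after it, GRCm38.p6, plus strand for both) matched 6 of the 8 ligands by name. None bore the name of Tnfsf9 or Tnfsf12. The 2 shown lie at chr3:27316827-27317126 and, for the second of 2 start sites of Tnfsf13b, at chr8:10006383-10006682. Capitals mark a match to the core of the interferon-stimulated response element (GAAA, then any pair of bases, then GAAA, searched on both strands).
Tnfsf10: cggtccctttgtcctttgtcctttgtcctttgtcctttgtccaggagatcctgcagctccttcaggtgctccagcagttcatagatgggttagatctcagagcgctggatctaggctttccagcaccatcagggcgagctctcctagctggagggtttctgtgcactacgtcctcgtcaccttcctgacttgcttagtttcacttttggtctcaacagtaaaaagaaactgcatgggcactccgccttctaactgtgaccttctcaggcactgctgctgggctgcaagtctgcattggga
Tnfsf13b: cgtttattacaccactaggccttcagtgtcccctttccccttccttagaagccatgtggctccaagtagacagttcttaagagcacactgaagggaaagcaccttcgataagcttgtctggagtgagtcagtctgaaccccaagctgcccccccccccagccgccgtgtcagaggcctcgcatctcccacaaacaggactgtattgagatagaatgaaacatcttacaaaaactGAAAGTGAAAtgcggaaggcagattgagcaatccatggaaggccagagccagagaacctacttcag
The match of Tnfsf13b begins 16 bases before its second start site, on the plus strand, and reads GAAAGTGAAA. Of 32851 promoters of this length, 3.44% held this core, 8.30% held the GAS element (TTCNNNGAA) and 8.46% held the NF-kB consensus. Apart from that 1 match, no promoter of the 6 ligands held any of these 3 motifs. Nor did that of Tnfsfm13 (chr11:69696049-69696348, minus strand), a gene that spans Tnfsf12 and shares its upstream end at base 69696098. A match or its absence says nothing about binding in these cells.

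Tnfsf10 (NCBI gene 22035, chr3:27317077-27339665) encodes TRAIL, the ligand that triggers apoptosis through a death receptor. Its level was 0.76, 0.15, 0.39 and 0.70 FPKM in TAM-WT replicates 1 to 4 and 1.12, 2.09, 1.88 and 1.45 FPKM in TAM-KO replicates 1 to 4, from 61, 12, 31 and 57 reads and from 91, 160, 149 and 116 reads. All 4 TAM-KO libraries lay above all 4 TAM-WT libraries, as was so for 13.5% of all genes tested, and no other ligand had groups that lay apart in either direction, against 18.9% of all genes. The mean was 0.50 ± 0.284 FPKM in TAM-WT and 1.64 ± 0.435 FPKM in TAM-KO (SD, n = 4), and the fitted level was 3.01-fold higher in TAM-KO (log2 fold change 1.59 ± 0.39, SE; edgeR adjusted p = 0.0372), which made it a DEG, as were 2.53% of the genes tested.

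That call rested on the full set of mice. With 1 library left out at a time the log2 fold change of Tnfsf10 stayed between 1.27 and 1.84, but the edgeR adjusted p passed only without TAM-WT replicate 1 (0.0334) or TAM-WT replicate 2 (0.0120). It was 0.106 and 0.0542 without TAM-WT replicates 3 and 4, and 0.0542, 0.123, 0.109 and 0.0527 without TAM-KO replicates 1 to 4.

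Genes of other programmes moved with Tnfsf10. Of 17 interferon response genes, 15 had values and all 15 had a log2 fold change above 0, with a median of 1.01. Of these, 5 passed and rose, among them Cxcl10, Irf1 and Gbp3. Over all genes, 6244 of 12412 tested had a log2 fold change above 0, and 4.58% passed as higher. The list, led by Cxcl10 and Irf7, summed to 624, 276, 352 and 654 FPKM in TAM-WT replicates 1 to 4 and to 760, 1122, 1361 and 933 FPKM in TAM-KO replicates 1 to 4, so TAM-WT replicates 1 and 4 were the higher pair of TAM-WT for this sum as for Tnfsf10, and TAM-KO replicate 1 was the lowest of TAM-KO for both.

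T cell, NK cell and monocyte markers also had higher mean sums in TAM-KO, and lymphocytes and monocytes are themselves known to make TRAIL and BAFF. The T cell sum, led by Cd3g and Cd8a, was 24.5, 41.9, 34.8 and 15.1 FPKM in TAM-KO replicates 1 to 4. With edgeR, 0 of 9 T cell markers passed (8 at an unadjusted p under 0.05), and 4 passed with DESeq2, 3 of them higher. Of the 9, 7 had a log2 fold change above 0 and 2 below, with a median of 2.34. The sum of 7 NK cell markers, led by Gzmb and Prf1, was from 0.23 to 9.97 FPKM in TAM-WT. In TAM-KO it was from 7.73 to 33.1 FPKM. Of 3 tested Eomes rose, and 5 were below the filter on low counts. In the fit without a filter, Klrb1c had a log2 fold change of -0.96. Ncr1 (0.78), Klre1 (2.72), Klra4 (1.53) and Gzma (2.12) were above 0 in that fit. None of these 5, named here after their values were seen, passed. The sum of 4 monocyte markers, led by Plac8 and Ly6c2, was from 58.6 to 158 FPKM in TAM-WT and from 245 to 393 FPKM in TAM-KO, and 3 of 6 rose.

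The sum of 6 neutrophil markers, led by Csf3r and S100a8, was from 21.3 to 32.3 FPKM in TAM-WT and from 48.8 to 196 FPKM in TAM-KO, and of 4 tested S100a8 rose (3 passed with DESeq2). The sum of 7 dendritic cell markers, led by Fscn1 and Batf3, was from 9.5 to 17.4 FPKM in TAM-WT and from 16.5 to 22.9 FPKM in TAM-KO. All 9 summed to between 15.1 and 31.9 FPKM in TAM-WT, highest in replicate 1. In the 3 TAM-KO libraries other than replicate 1 they summed to between 24.4 and 25.4 FPKM, within the TAM-WT range. Of the 9, all tested, Xcr1 rose (3 passed with DESeq2, 2 of them higher), and the median log2 fold change was 0.15. Of the genes of these 5 lists, only Ngp of the neutrophil list was at 0 in every library, and the part of such cells, of tumor RNA or of the interferon response genes in the level of Tnfsf10 was not tested.

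**Figure D3:**
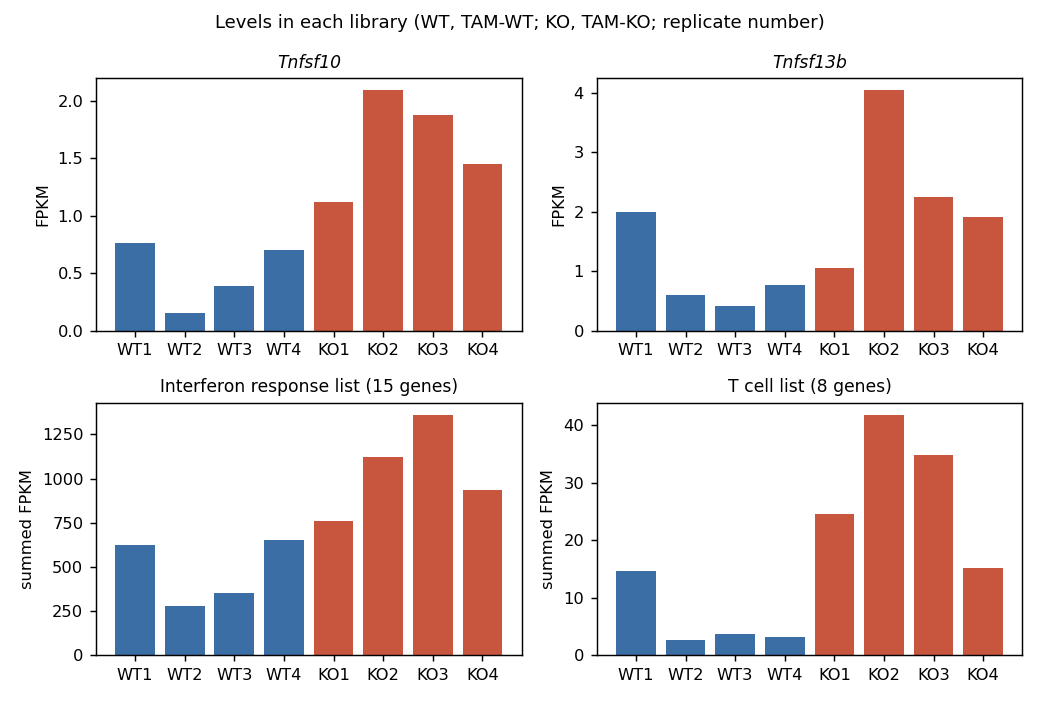
FPKM of Tnfsf10 and Tnfsf13b in each of the 8 libraries (bars, linear axes from 0), above the summed FPKM of 15 interferon response genes and of 8 T cell markers. TAM-WT replicate 1 is the highest of TAM-WT for Tnfsf10, Tnfsf13b and the T cell sum, and TAM-KO replicate 2 is the highest of TAM-KO for those 3.

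Tnfsf13b (NCBI gene 24099, chr8:10006229-10036000) encodes BAFF, a survival factor of B cells made by myeloid cells. It had 2.00, 0.59, 0.41 and 0.76 FPKM in TAM-WT replicates 1 to 4 and 1.06, 4.04, 2.24 and 1.91 FPKM in TAM-KO replicates 1 to 4, from 10 to 49 and from 27 to 96 reads. TAM-WT replicate 1 lay within the TAM-KO range, and the other 3 TAM-WT libraries lay below it. The means were 0.94 ± 0.721 and 2.31 ± 1.25 FPKM (SD, n = 4), and the difference did not pass (log2 fold change 1.199 ± 0.50, SE; edgeR adjusted p = 0.137). Without TAM-WT replicate 1 the log2 fold change was 1.84 and the edgeR adjusted p 0.0411, while the other 7 sets of libraries gave from 0.81 to 1.44 and did not pass. B cell markers, led by Cd79b, summed over 4 genes to between 3.06 and 6.55 FPKM in TAM-WT and between 4.64 and 10.1 FPKM in TAM-KO, and 0 of 2 tested passed with edgeR (1 at an unadjusted p under 0.05, and 0 passed with DESeq2). The part of B cells, T cells and monocytes in the level of Tnfsf13b was not tested.

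Tnfsf13 (NCBI gene 69583, chr11:69682577-69685554) encodes APRIL, the other ligand of the BAFF receptor group and a survival factor of plasma cells. Its level was 6.13, 7.18, 6.28 and 7.32 FPKM in TAM-WT replicates 1 to 4 and 8.08, 10.04, 5.41 and 7.18 FPKM in TAM-KO replicates 1 to 4. TAM-KO held both the lowest and the highest library, so the groups overlapped throughout. The log2 fold change was 0.08 ± 0.17 (SE; edgeR adjusted p = 0.772), and it was -0.06 without TAM-KO replicate 2.

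Tnfsf12 (NCBI gene 21944, chr11:69686240-69696098), which encodes TWEAK, lies 685 bases from Tnfsf13 on the same chromosome and had the highest mean FPKM of the 8. It had 45.5, 45.9, 53.9 and 65.0 FPKM in TAM-WT replicates 1 to 4 and 40.2, 39.9, 33.4 and 48.7 FPKM in TAM-KO replicates 1 to 4. TAM-KO replicate 4 lay within the TAM-WT range and the other 3 TAM-KO libraries lay below it. The means were 52.6 ± 9.16 and 40.5 ± 6.28 FPKM (SD, n = 4), and the difference did not pass (log2 fold change -0.49 ± 0.16, SE; edgeR adjusted p = 0.0786). It passed without TAM-KO replicate 4 (edgeR adjusted p = 0.0491) and without TAM-WT replicate 2 (edgeR adjusted p = 0.0352). With DESeq2 and all 8 libraries, the adjusted p of Tnfsf12 was 0.0369.

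The values of Tnfsf12 and Tnfsf13 are uncertain as single genes, because a readthrough gene spans both. Tnfsfm13 (NCBI gene 619441, chr11:69682577-69696098) joins exons of Tnfsf12 and Tnfsf13 into 1 transcript, and RSEM divides the shared reads between the 3 genes by estimate. An lncRNA, Tnfsf13os, also overlaps both, and the sources used here do not say whether counting used strand. Tnfsfm13 itself had 6.14, 4.90, 6.23 and 5.81 FPKM in TAM-WT replicates 1 to 4 and 3.10, 4.28, 3.94 and 5.87 FPKM in TAM-KO replicates 1 to 4. Its groups overlapped through TAM-KO replicate 4, and its log2 fold change was -0.53 ± 0.20 (SE; edgeR adjusted p = 0.101). It passed without that library (edgeR adjusted p = 0.0306) and without TAM-WT replicate 2 (edgeR adjusted p = 0.0485).

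To avoid the division of reads, the 3 genes were also summed and fitted as 1 row, which was chosen after the data were seen. The sum was 1462, 1477, 1672 and 1990 expected counts in TAM-WT replicates 1 to 4 and 1305, 1308, 1068 and 1566 expected counts in TAM-KO replicates 1 to 4. TAM-KO replicate 4 lay within the TAM-WT range, as for Tnfsf12 alone. The log2 fold change of the sum was -0.42 ± 0.15 (SE; edgeR adjusted p = 0.0896). Tnfsf12 held 78.0% ± 2.27 of the sum in TAM-WT and 75.0% ± 2.33 in TAM-KO, and Tnfsfm13 held 11.98% ± 1.76 and 10.9% ± 2.06 (SD, n = 4). Tnfsf13 held from 9.01% to 11.9% in TAM-WT and from 11.1% to 17.8% in TAM-KO.

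**Figure D4:**
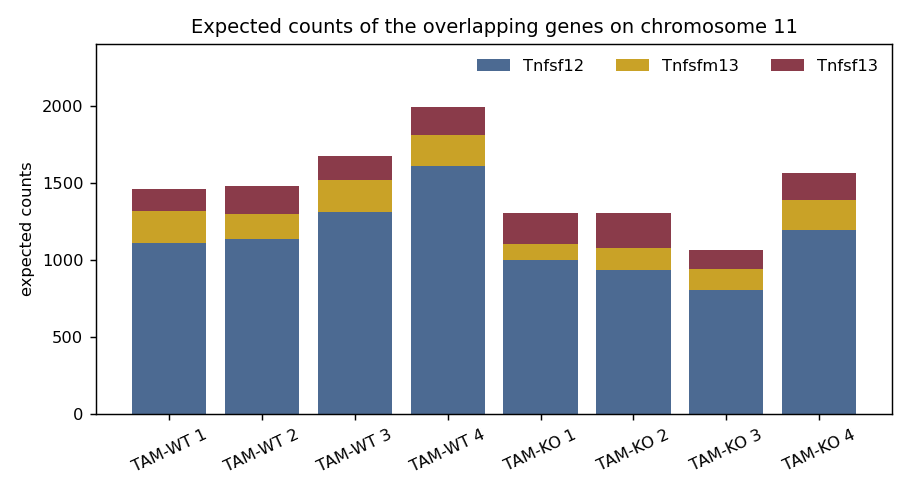
Expected counts of Tnfsf12, Tnfsfm13 and Tnfsf13 stacked in each library. The stack runs from 1462 to 1990 in TAM-WT and from 1068 to 1566 in TAM-KO, and Tnfsf12 is the largest part in all 8 libraries.

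Tnfsf9 (NCBI gene 21950, chr17:57105287-57107758) encodes 4-1BB ligand, which costimulates activated T cells. It had 22.1, 49.96, 65.0 and 37.1 FPKM in TAM-WT replicates 1 to 4 and 30.4, 22.3, 23.2 and 22.8 FPKM in TAM-KO replicates 1 to 4. TAM-WT replicate 1 was the lowest of all 8 libraries and the other 3 TAM-WT libraries lay above every TAM-KO library, so the overlap of the groups rested on that 1 mouse. The means were 43.5 ± 18.3 and 24.7 ± 3.85 FPKM (SD, n = 4), and the difference did not pass (log2 fold change -0.94 ± 0.29, SE; edgeR adjusted p = 0.0675).

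Without TAM-WT replicate 1 the log2 fold change of Tnfsf9 was -1.16 and it passed (edgeR adjusted p = 0.0146), and without TAM-WT replicate 3, its highest library, it was -0.63 (edgeR adjusted p = 0.167). With DESeq2 in place of edgeR and all 8 libraries, the adjusted p was 0.0120. The lncRNA Gm11110 overlaps the gene, so its values carry the same limit of strand as the chromosome 11 genes.

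Tnfsf14 (NCBI gene 50930, chr17:57189474-57194181) encodes LIGHT, which binds the herpesvirus entry mediator and the lymphotoxin beta receptor, and lies 81.7 kb from Tnfsf9 with Cd70, another ligand of the superfamily, between them. It had 4.32, 3.17, 9.62 and 5.42 FPKM in TAM-WT replicates 1 to 4 and 4.55, 4.82, 6.41 and 5.67 FPKM in TAM-KO replicates 1 to 4. TAM-WT held both the lowest and the highest library. The log2 fold change was -0.20 ± 0.32 (SE; edgeR adjusted p = 0.716), and it was 0.24 without TAM-WT replicate 3, the highest library.

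Tnfsf8 (NCBI gene 21949, chr4:63831202-63861508) encodes CD30 ligand, a T cell costimulator. Its level was 0.49, 0.27, 0.33 and 0.59 FPKM in TAM-WT replicates 1 to 4 and 0.48, 0.41, 0.24 and 0.36 FPKM in TAM-KO replicates 1 to 4, on at most 29 reads. The groups overlapped, and the log2 fold change was -0.25 ± 0.33 (SE; edgeR adjusted p = 0.646).

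Tnfsf15 (NCBI gene 326623, chr4:63724600-63745059) encodes TL1A, a costimulator of T cells and innate lymphoid cells, and lies 86.1 kb from Tnfsf8 with no protein-coding gene between them. Its level was 0.33, 0.10, 0.14 and 0.25 FPKM in TAM-WT replicates 1 to 4 and 0.20, 0.33, 0.54 and 0.37 FPKM in TAM-KO replicates 1 to 4, on 10 to 50 reads. TAM-WT replicates 1 and 4 lay within the TAM-KO range. It had the lowest mean FPKM of the 8, and its log2 fold change of 0.69 ± 0.39 did not pass (SE; edgeR adjusted p = 0.262). The lncRNA Gm42294 overlaps it, so its reads may include those of the other strand.

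Neighbours in the genome thus did not share a direction in each case. On chromosome 4, Tnfsf8 (log2 fold change -0.25) and Tnfsf15 (0.69) lay on either side of 0, and neither passed. On chromosome 17, Tnfsf9 (-0.94) and Tnfsf14 (-0.20) were both below 0, and neither passed. On chromosome 11, Tnfsf12 (-0.49) and Tnfsf13 (0.08), whose shared reads were divided by estimate, lay on either side of 0, and neither passed.

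**Figure D5:**
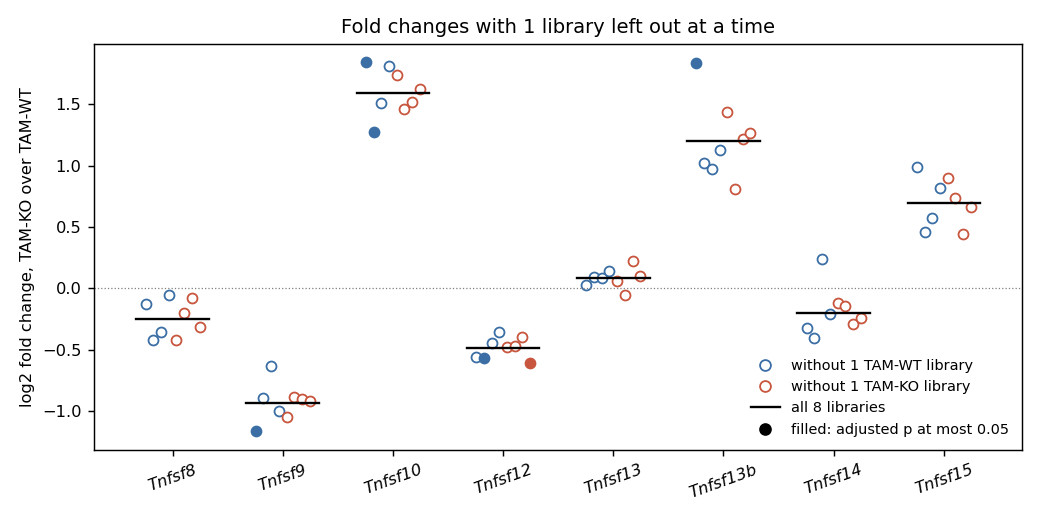
Log2 fold change of each ligand (TAM-KO over TAM-WT) in 8 fits that each leave out 1 library, with a bar at the value from all 8 libraries and filled points where the adjusted p was at most 0.05. Tnfsf10 stays between 1.27 and 1.84, Tnfsf9 between -1.16 and -0.63, and Tnfsf13 and Tnfsf14 cross 0.

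Of 13 receptors of the 8 ligands, 10 were tested, 0 were higher, 1 was lower and 9 did not pass, with a median log2 fold change of 0.10. That 1 of 10 stands beside 9.81% of all genes that passed and 5.24% that passed as lower, so the receptors too passed at about the rate of all genes. Tnfrsf13c, Tnfrsf17 and Tnfrsf25 were below the filter on low counts, with at most 12 reads in any library. They are receptors that B cells, plasma cells and T cells use for BAFF, APRIL and TL1A. Tnfrsf13b, another receptor of BAFF and APRIL, named here after its values were seen, was above the filter. Its level was from 11.65 to 14.83 FPKM in TAM-WT and from 10.11 to 12.9 FPKM in TAM-KO. The difference did not pass (log2 fold change -0.28 ± 0.10, SE; edgeR adjusted p = 0.108).

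Tnfrsf23 fell in TAM-KO, which is a mouse decoy receptor that binds TRAIL without a death domain. It had 3.57, 3.86, 5.35 and 5.76 FPKM in TAM-WT replicates 1 to 4 and 3.53, 1.64, 2.01 and 3.0 FPKM in TAM-KO replicates 1 to 4. TAM-WT lay above TAM-KO, though TAM-WT replicate 1 exceeded TAM-KO replicate 1 by little, and 5.41% of all genes had TAM-WT above in this way. The log2 fold change was -0.98 ± 0.27 (SE; edgeR adjusted p = 0.0473). It passed in 3 of 8 fits with 1 library left out, those without TAM-WT replicate 1, TAM-WT replicate 2 or TAM-KO replicate 1, and the other 5 gave an edgeR adjusted p from 0.0577 to 0.137.

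The rest of the TRAIL receptors, named here after their values were seen, did not pass. Tnfrsf10b, the mouse death receptor for TRAIL, had 1.25 ± 0.281 FPKM in TAM-WT and 1.53 ± 0.306 FPKM in TAM-KO (SD, n = 4; log2 fold change 0.18, edgeR adjusted p = 0.625). Tnfrsf22, a second decoy, had a log2 fold change of -0.20 (edgeR adjusted p = 0.289). Tnfrsf11b, which encodes the soluble decoy osteoprotegerin, had 2.39, 2.02, 1.10 and 1.69 FPKM in TAM-WT replicates 1 to 4 and 3.02, 4.56, 4.05 and 2.54 FPKM in TAM-KO replicates 1 to 4, where the value of TAM-KO replicate 1 came from the table of the whole series. All 4 TAM-KO libraries lay above TAM-WT, and its log2 fold change of 0.94 ± 0.25 on the other 7 libraries did not pass (SE; edgeR adjusted p = 0.0525). Leaving out TAM-WT replicate 1, TAM-WT replicate 2 or TAM-KO replicate 4 gave an edgeR adjusted p of 0.0454, 0.0451 and 0.0365.

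Among the receptors of the ligands, the 2 with the highest FPKM were Ltbr, which encodes the lymphotoxin beta receptor bound by LIGHT, and Tnfrsf12a, which encodes the TWEAK receptor Fn14. Ltbr had 71.3 ± 1.52 FPKM in TAM-WT (SD, n = 4) and 77.7 ± 3.16 FPKM in TAM-KO (SD, n = 3), and its log2 fold change on 7 libraries was 0.02 ± 0.07 (SE; edgeR adjusted p = 0.878). Tnfrsf12a had 27.3 ± 2.75 and 28.4 ± 4.04 FPKM (SD, n = 4), with a log2 fold change of -0.04 ± 0.14 (SE; edgeR adjusted p = 0.854). RNA of both ligand and receptor of the TWEAK pair was thus present in the sorted cells of both groups.

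Of the 10 other ligands of the superfamily, 3 were tested and 7 were below the filter. Of the 3 tested, 1 passed, as lower, beside 5.24% of all genes that passed as lower. Tnfsf18, which encodes GITR ligand, fell, from 0.59, 0.67, 0.68 and 0.58 FPKM in TAM-WT replicates 1 to 4 to 0.22, 0.27, 0.13 and 0.19 FPKM in TAM-KO replicates 1 to 4. The groups lay apart, but on only 18 to 21 reads in TAM-WT and 4 to 8 reads in TAM-KO. The log2 fold change was -1.71 ± 0.28 (SE; edgeR adjusted p = 0.0140), and without TAM-KO replicate 3 the edgeR adjusted p was 0.0532, while the other 7 fits passed.

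Tnf, the founding cytokine of the family, had 57.8, 207, 244 and 189 FPKM in TAM-WT replicates 1 to 4 and 129, 39.2, 54.7 and 75.7 FPKM in TAM-KO replicates 1 to 4. As for Tnfsf9, TAM-WT replicate 1 was the lowest of TAM-WT and TAM-KO replicate 1 the highest of TAM-KO. Its log2 fold change of -1.34 ± 0.46 did not pass (SE; edgeR adjusted p = 0.0865), and without TAM-WT replicate 1 it was -1.64 and passed (edgeR adjusted p = 0.0261). Ltb, which encodes lymphotoxin beta and is made mainly by lymphocytes, had 2.62, 0.14, 0.50 and 0.56 FPKM in TAM-WT replicates 1 to 4 and 5.12, 5.25, 3.97 and 2.24 FPKM in TAM-KO replicates 1 to 4. The order of its TAM-WT libraries put replicate 1 first, as the T cell sum did, and the difference did not pass on 7 libraries (log2 fold change 1.91 ± 0.69, SE; edgeR adjusted p = 0.106). Without TAM-WT replicate 1 the log2 fold change of Ltb was 3.11 and passed (edgeR adjusted p = 0.0175).

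Fasl, the other death ligand of lymphocytes and named after its values were seen, was below the filter with 6, 0, 1 and 0 reads in TAM-WT replicates 1 to 4 and 16, 28, 15 and 9 reads in TAM-KO replicates 1 to 4, the value of TAM-KO replicate 1 being that of the table of the whole series. Its TAM-KO libraries lay above its TAM-WT libraries. In the fit without a filter, on the other 7 libraries, it did not pass (log2 fold change 3.15 ± 0.84, SE; edgeR adjusted p = 0.0534).

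Of 14 other receptors of the superfamily, 11 were tested, 2 rose and 0 fell, beside 4.58% of all genes that passed as higher and 5.24% as lower. Tnfrsf18, which encodes GITR, the receptor of Tnfsf18, had 1.85, 0.30, 0.46 and 0.53 FPKM in TAM-WT replicates 1 to 4 and 2.25, 4.43, 3.39 and 2.28 FPKM in TAM-KO replicates 1 to 4. These values came from 24, 4, 6 and 7 reads in TAM-WT and from 30, 56, 44 and 30 reads in TAM-KO. All TAM-KO libraries lay above TAM-WT, TAM-WT replicate 1 being nearest, and the log2 fold change was 1.87 ± 0.47 (SE; edgeR adjusted p = 0.0404). Ligand and receptor of the GITR pair thus moved in opposite directions.

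Cd27, the receptor of CD70 on T cells and NK cells, had 1.3, 0.06, 0.13 and 0.13 FPKM in TAM-WT replicates 1 to 4 and 3.06, 3.12, 2.97 and 1.19 FPKM in TAM-KO replicates 1 to 4. TAM-WT replicate 1 lay just above TAM-KO replicate 4, and the other libraries of the groups lay apart. Cd27 rested on 29, 1, 3 and 3 reads in TAM-WT replicates 1 to 4 and on 69, 69, 66 and 27 reads in TAM-KO replicates 1 to 4. It rose by a log2 fold change of 2.58 ± 0.68 (SE; edgeR adjusted p = 0.0445). Without TAM-WT replicate 1, against 1 to 3 reads a library, the value was 4.45 (edgeR adjusted p = 0.0059). Cd27 and Tnfrsf18 each passed in 3 of 8 fits with 1 library left out, those without TAM-WT replicate 1, TAM-WT replicate 2 or TAM-KO replicate 4, with an edgeR adjusted p of up to 0.131 and 0.130 in the others. Both are known on lymphocytes, and the T cell sum given above was also higher in TAM-WT replicate 1 and in TAM-KO, but its part in them was not tested.

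Tnfrsf1a and Tnfrsf1b, which encode the TNF receptors, had the highest FPKM of the other receptors. Tnfrsf1a had 109 ± 6.55 and 123 ± 6.99 FPKM (SD, n = 4; log2 fold change 0.06, edgeR adjusted p = 0.671). Tnfrsf1b had 78.2 ± 19.0 and 78.2 ± 10.3 FPKM (SD, n = 4; log2 fold change -0.12, edgeR adjusted p = 0.723).

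Of the 17 genes that carry the signal of these receptors inside the cell, 0 passed with edgeR, where 9.81% of all genes did. Of the 17, 3 had an unadjusted p under 0.05 and 2 passed with DESeq2, and their median log2 fold change was -0.02. Tnfaip3, which encodes the NF-kB inhibitor A20 and had the highest FPKM of them, had 39.4, 169, 205 and 148 FPKM in TAM-WT replicates 1 to 4 and 80.2, 19.4, 31.2 and 52.3 FPKM in TAM-KO replicates 1 to 4. TAM-WT replicate 1 lay within the TAM-KO range and the other 3 lay above it. The log2 fold change was -1.74 ± 0.54 (SE; edgeR adjusted p = 0.0654), and without TAM-WT replicate 1 it was -2.05 and passed (edgeR adjusted p = 0.0227). Casp8, the initiator caspase below the death receptors, had 42.8 ± 3.56 FPKM in TAM-WT (SD, n = 4) and 47.8 ± 1.85 FPKM in TAM-KO (SD, n = 3; log2 fold change 0.05, edgeR adjusted p = 0.688).

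Of 8 genes whose proteins cut ligands from the membrane, trim them or regulate such proteases, 6 were tested. With edgeR, 0 of the 6 passed, where 9.81% of all genes did (1 at an unadjusted p under 0.05, and 1 passed with DESeq2). Furin, which cleaves TWEAK, APRIL and BAFF, had 80.4 ± 18.5 and 65.7 ± 13.8 FPKM (SD, n = 4; log2 fold change -0.40, edgeR adjusted p = 0.234), and without TAM-WT replicate 2 it passed at a log2 fold change of -0.55 (edgeR adjusted p = 0.0490). Adam17, which sheds TNF, had 45.6 ± 4.84 FPKM in TAM-WT (SD, n = 4) and 52.5 ± 2.77 FPKM in TAM-KO (SD, n = 3; log2 fold change 0.09, edgeR adjusted p = 0.563).

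The genes whose levels were most like those of each ligand were found by Pearson's r of log2(CPM + 1) over the 7 libraries other than TAM-KO replicate 1, among 10374 genes with a mean CPM of at least 5. These r values are a description over few libraries that share the difference between groups, and carry no test. Tnfsf10 was most like Zbp1 (r = 0.999), Trafd1 (r = 0.999) and Nlrc5 (r = 0.998). Tnfsf13b was most like Ccdc71 (r = 0.994), Stx16 (r = 0.991) and Rbl2 (r = 0.989), none of which is among the 3 of Tnfsf10.

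Tnfsf12 was most like Anxa1 (r = 0.995), Anxa2 (r = 0.990) and Abca1 (r = 0.986), of which the first 2 encode annexins. Tnfsf9 was most like Yrdc (r = 0.989), Slc17a9 (r = 0.988) and Gem (r = 0.983). Tnfsf8 was most like Cnpy3 (r = 0.979), Terf2ip (r = 0.974) and Gmppb (r = 0.972). No ligand was among the 3 of another.

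Tnfsf14 was most like Fbxl5 (r = 0.977), Cebpb (r = 0.965) and Kdm5b (r = 0.962). Tnfsf15 was most like Mitd1 (r = 0.967), E4f1 (r = 0.962) and Zup1 (r = 0.961). Tnfsf13 had the lowest values, with Fastkd5 (r = 0.940), Bend4 (r = 0.936) and Shb (r = 0.897).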

How the data were processed

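RNA of sorted TAMs (4 TAM-WT and 4 TAM-KO) was assigned to groups and replicates from the labelled genotype and number. The authors sequenced on BGISEQ-500, and their processing notes name HISAT2 2.0.4, Bowtie2 2.2.5, RSEM 1.2.12 and GRCm38.p6. Expected counts, estimated per gene by RSEM without normalization, and FPKM values, which the authors computed relative to gene length and mapped fragments, were used as deposited. The authors' columns of fold changes, p-values and q-values were not used. Gene positions came from RefSeq for GRCm38.p6.

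The test rounded each expected count to an integer and used edgeR 4.0.16 under R 4.3.3 (TMM, filterByExpr, glmQLFit, glmQLFTest), with p adjusted by Benjamini-Hochberg over 12412 genes. Of these, 9396 were fitted on 8 libraries and 3016, without a usable value in TAM-KO replicate 1, on 7. In its table, 629 genes without a value in the other libraries had one, which in 170 of 170 that could be compared was that of another gene, and 1 value differed from the table of the whole series. None of these was used. That table gave TAM-KO replicate 1 for 1188 genes, which enter FPKM means and not the test. The whole reads behind a value set its precision: the fitted standard errors carry counting error and the spread between mice.

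The members and gene lists were chosen with earlier results of these data known. Named were the 8 ligands, the members of each pathway list that passed and its 2 of highest mean FPKM, the 2 leading markers of a cell type list beside a result, and the 3 genes of highest correlation with each ligand; exceptions are marked where they occur. One gene of the interferon response list enters its counts and sums but is not reported here. Alternatives were DESeq2 1.42.0 size factors and test, no filter, at least 10 counts in every library, limma 3.58.1 on log2(FPKM + 1) and log2(FPKM + 0.1), a replicate block, gaps of TAM-KO replicate 1 filled with the series-wide values, the fold threshold, and each library left out. Scaling to total counts and the summed chromosome 11 genes were chosen after the data were seen.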

Additional observations from a re-analysis of the deposited data

Results flagged for a closer look

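Among 24 groups of 4 libraries of the ligands and the list genes that passed, 4 libraries lay farther from their group than Dixon's 95% limit, where chance gives about 1 in 20 groups (1.2 of 24). Tnfsf9 had 30.43 FPKM in TAM-KO replicate 1 against 22.32 to 23.22 FPKM in the other TAM-KO libraries. Cd27 had 1.3 FPKM in TAM-WT replicate 1 against 0.06 to 0.13 FPKM, and 1.19 FPKM in TAM-KO replicate 4 against 2.97 to 3.12 FPKM. Tnfrsf18 had 1.85 FPKM in TAM-WT replicate 1 against 0.30 to 0.53 FPKM in the other TAM-WT libraries. TAM-WT replicate 1 also had the highest T cell sum of TAM-WT (14.6 FPKM), and the part of that sum in these values was not tested.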

How the results depend on the processing

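Of the 8 ligands, 1 passed in the reported fit, 3 with DESeq2's own test and from 0 to 3 with 1 library left out. It was 0 without TAM-WT replicate 3 or 4 or TAM-KO replicate 1, 2 or 3, 3 without TAM-WT replicate 1 and 2 without TAM-WT replicate 2. All genes passing were 1218, with DESeq2 2253, with a fold of at least 2 as well 314, and from 77 (without TAM-KO replicate 2 or 3) to 2755 (without TAM-WT replicate 2) with 1 library left out. Other ligands passing were 1, or 0 at 10 counts in every library, and from 0 to 3 with 1 left out. Receptors of the ligands were 1, with DESeq2 2, with total counts 2, with limma on log2(FPKM + 0.1) 0, with a fold of at least 2 as well 0, and from 0 to 2 with 1 left out. With TAM-KO replicate 1 filled the count was 1, but this was not Tnfrsf23. Other receptors were 2, with DESeq2 4, at 10 counts in every library 0, with TAM-KO replicate 1 filled 1, and from 0 to 4 with 1 left out. Signalling genes were 0, with DESeq2 2, with either limma fit 1, with total counts 1, and from 0 to 2 with 1 left out. Genes that process ligands (proteases and their regulators) were 0, with DESeq2 1, with either limma fit 1, and from 0 to 2 with 1 left out. The causes were not tested.

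The replicate numbers did not pair the libraries: same-numbered libraries' deviations from their group means correlated at -0.32, 0.02, -0.24 and 0.26, and 1 of 4 numbers was its own best match. With the replicate number as a block, 0 ligands, 2 other ligands, 0 of their receptors, 1 other receptor and 1 signalling gene passed, and 1080 of all genes. Tnfsf10 then had a log2 fold change of 1.65 (edgeR adjusted p = 0.0697).

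The sign turned for the log2 fold change of Tnfsf13, which ran from -0.057 (without TAM-KO replicate 2) to 0.22 with 1 library left out. It also turned for Tnfsf14, which ran from -0.41 to 0.24 (without TAM-WT replicate 3), and was 0.019 with limma on log2(FPKM + 1) and 0.037 with limma on log2(FPKM + 0.1). The last of these fits put the median of all genes at 0.11, above the value of Tnfsf14. Apart from the fits with 1 library left out and the block, the adjusted p of Tnfsf10 was from 0.0017 (DESeq2) to 0.0469 (TAM-KO replicate 1 filled). Mean FPKM without 1 library stayed within 1 SD for every ligand. With 4 libraries in a group it cannot do otherwise, so this check does not measure how stable the levels are. Tnfsf18, Cd27 and Tnfrsf18 could not be fitted at 10 counts in every library. The levels of Tnfsf8, Tnfsf13b and Tnfsf15 rest on 10 to 96 reads a library, which limits their precision.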
